A study of Mus musculus with 8 samples.

Results

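The genes described here are 40 mouse genes of the interferon system: 4 receptor chains and 36 genes that cells switch on, or use, when interferon reaches them. They were taken by name from a list of 40 symbols out of 30139 gene names on the array, and each is read from its brightest probe. All 40 are on the array, and 38 were measured well enough to be tested, against 17856 tested genes in all. The cells were mSCC-20, a line from a cutaneous squamous cell carcinoma of FVB/N mice, which is to say malignant keratinocytes. They were transfected with miR-193b-3p, with miR-365a-3p or with a control microRNA that the labels call NC, and their total RNA was labelled with Cy3 for single-colour Agilent arrays. There are 2 arrays of miR-193b and 2 of NC with an amount label of 0.2 µg (the 0.2 set), and 2 arrays of miR-365a and 2 of NC with 0.6 µg (the 0.6 set). Every array came from this 1 line. The labels do not say whether the arrays of a group came from separate cultures, so the p values below measure the spread between these arrays only.

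Interferons are secreted proteins that announce the presence of foreign nucleic acid. Type I interferons bind a receptor made of Ifnar1 and Ifnar2, and interferon gamma binds a receptor made of Ifngr1 and Ifngr2. Kinases of the JAK family on these receptors phosphorylate STAT proteins. A complex that holds Stat2 and Irf9 then binds an element called ISRE in the promoters of interferon-stimulated genes, while pairs of STAT proteins bind a shorter palindrome called GAS. The products of the stimulated genes detect foreign RNA, degrade it or block its translation, trap virus particles and load peptides for T cells. Keratinocytes carry both receptors and respond to both kinds of interferon.

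The transfected microRNAs are shown as RefSeq gives the mature mouse forms (build GRCm38.p6), with the seed, bases 2 to 8, in capitals. Both lie on the plus strand of chromosome 16, miR-193b-3p at chr16:13449570-13449591 and miR-365-3p at chr16:13453895-13453916, and a further locus of miR-365-3p with the same mature sequence lies on chromosome 11. Their seeds differ.
miR-193b-3p: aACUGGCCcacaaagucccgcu
miR-365-3p: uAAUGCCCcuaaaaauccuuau

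Promoters of members are shown because the ISRE is the letter pattern that links many of these genes. RefSeq promoters of GRCm38.p6, running from 250 bases before to 50 after a gene's start, were found for 31 of the 40 members. Where several were listed for a gene, the first was taken. The pattern of GAAA, any 2 bases and GAAA, searched on both strands with overlapping matches counted, was present in 13 of the 31, or 41.9%, and in 943 of all 27025 promoters of the same length, or 3.49%. The GAS pattern TTCNNNGAA was present in 9 of the 31, or 29.0%, and in 8.47% of all promoters. A match describes the letters and does not show that a factor binds there. Capitals mark matches to this pattern on either strand, and each promoter reads 5′ to 3′ on the strand of its gene. Isg15 holds 3 overlapping matches, Oas1a and Ifit1 hold 2 each, Oas3 holds 1, and Ifngr2 holds none within this window.
Isg15 (chr4:156200769-156201068, minus strand): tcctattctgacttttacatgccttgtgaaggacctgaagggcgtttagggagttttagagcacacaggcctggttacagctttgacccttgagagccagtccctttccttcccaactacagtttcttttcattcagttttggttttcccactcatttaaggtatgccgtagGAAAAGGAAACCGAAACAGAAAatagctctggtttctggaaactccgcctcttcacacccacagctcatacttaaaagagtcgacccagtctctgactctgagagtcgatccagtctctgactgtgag
Oas1a (chr5:120907476-120907775, minus strand): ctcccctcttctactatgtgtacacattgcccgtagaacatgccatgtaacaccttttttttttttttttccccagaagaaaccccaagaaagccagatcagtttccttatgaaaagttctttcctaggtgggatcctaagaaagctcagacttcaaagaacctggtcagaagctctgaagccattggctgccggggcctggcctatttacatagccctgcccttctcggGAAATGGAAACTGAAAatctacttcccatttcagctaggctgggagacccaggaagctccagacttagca
Ifit1 (chr19:34640639-34640938, plus strand): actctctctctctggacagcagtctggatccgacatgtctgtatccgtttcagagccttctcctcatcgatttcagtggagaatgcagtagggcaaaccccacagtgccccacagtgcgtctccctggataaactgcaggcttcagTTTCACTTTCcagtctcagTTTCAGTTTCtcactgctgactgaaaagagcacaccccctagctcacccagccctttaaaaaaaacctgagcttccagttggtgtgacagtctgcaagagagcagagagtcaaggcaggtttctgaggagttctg
Oas3 (chr5:120777610-120777909, minus strand): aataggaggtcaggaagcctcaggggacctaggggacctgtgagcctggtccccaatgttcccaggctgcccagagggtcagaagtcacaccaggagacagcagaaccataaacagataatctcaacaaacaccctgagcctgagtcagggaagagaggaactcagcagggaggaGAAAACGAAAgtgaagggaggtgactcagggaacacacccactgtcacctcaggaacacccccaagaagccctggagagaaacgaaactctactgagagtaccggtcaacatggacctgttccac
Ifngr2 (chr16:91546809-91547108, plus strand): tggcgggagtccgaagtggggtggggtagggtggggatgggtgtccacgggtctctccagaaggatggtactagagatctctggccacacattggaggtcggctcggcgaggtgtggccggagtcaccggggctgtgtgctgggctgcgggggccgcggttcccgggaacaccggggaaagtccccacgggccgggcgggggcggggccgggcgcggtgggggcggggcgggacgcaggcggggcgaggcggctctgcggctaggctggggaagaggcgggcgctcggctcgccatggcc

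Most keratinocyte markers were well above background on every array, and markers of other cells were so less often. Of 16 keratinocyte markers, 15 were well above background on all 8 arrays, Krt5 and Krt14 among them, and Dsc3 was not. Of 10 leukocyte markers 5 were tested, Cd3e, Cd68, Itgam, Csf1r and Cd14, all 5 above background on every array. Ptprc, the defining leukocyte antigen, was not among the tested ones. For fibroblasts 1 of 8 markers and for endothelium 3 of 6 were above background on all 8 arrays. Between 51.4% and 62.1% of 43020 gene spots were well above background, with no saturated spot. The 0.2 and 0.6 sets differed in amount label, slide and scan, which cannot be told apart. Slide 1 carried miR-193b replicate 1 and NC 0.2 replicate 1, slide 3 carried miR-193b replicate 2, slide 2 carried NC 0.2 replicate 2, and slide 4 carried the whole 0.6 set. Replicate numbers follow accession order and only name arrays.

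A log2 level below is the log2 processed signal minus the 75th percentile of gene spots on the same array, so that 0 is the level of that percentile. Probes differ in brightness for the same amount of RNA, so levels are compared between arrays for the same gene and never between genes. Of the members, 31 were well above background on all 8 arrays. Mx1, an antiviral GTPase, was not well above background on any array. Ifi44, an interferon-stimulated gene, was above background only on miR-193b replicate 2 and NC 0.2 replicate 2. Neither was tested. Oas3 and Bst2 have no value on NC 0.2 replicate 1, where their spots carried an outlier flag, and the fit used the other 7 arrays for them.

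**Figure D1:**
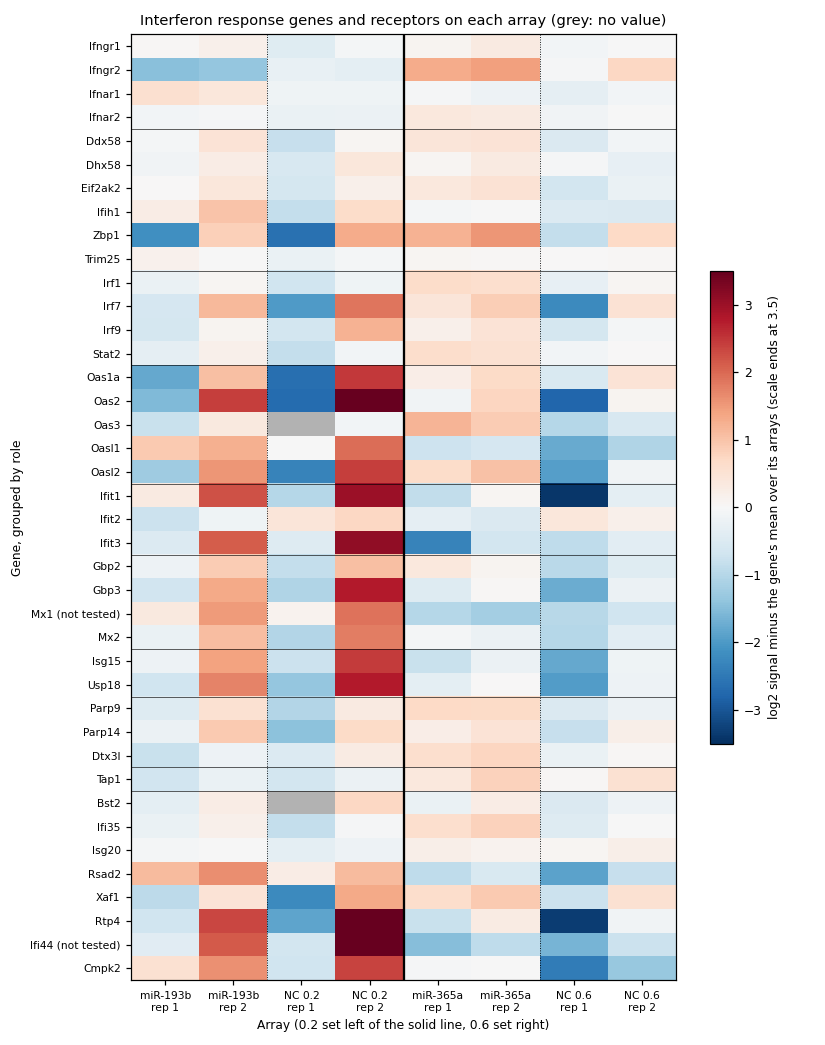
Each row is a gene and each column an array; colour gives the log2 level minus the mean of that gene over its arrays, red above and blue below, and grey marks no value. Red rows crowd the columns of miR-193b replicate 2 and NC 0.2 replicate 2, and NC 0.2 replicate 1 and NC 0.6 replicate 1 are mostly blue; the top 4 rows, the receptors, are paler within each group.

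The interferon genes differed between arrays of the same group, most of all between the NC 0.2 arrays. In NC 0.2, replicate 2 was higher than replicate 1 for 34 of the 36 members with both values, against 58.2% of all genes. The median log2 difference between these arrays was 1.66 over members and 0.0666 over all genes. For 20 of 36 members the NC 0.2 arrays differed by over 1 on the log2 scale, against 5.38% of all genes, and for 18 of 36 the difference lay in the top 1.0% of all genes. In miR-193b, 17 of 38 members differed by over 1, against 4.39% of all genes, with a median of 0.73. The 0.6 set was closer together: in miR-365a 2 of 38 differed by over 1, against 2.35% of all genes, with a median of 0.21, and in NC 0.6 the count was 14 of 38, against 3.0%, with a median of 0.52. Every member that passed this limit was higher on replicate 2 of its group. The part of slide, transfection or culture in this spread was not tested.

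**Figure D2:**
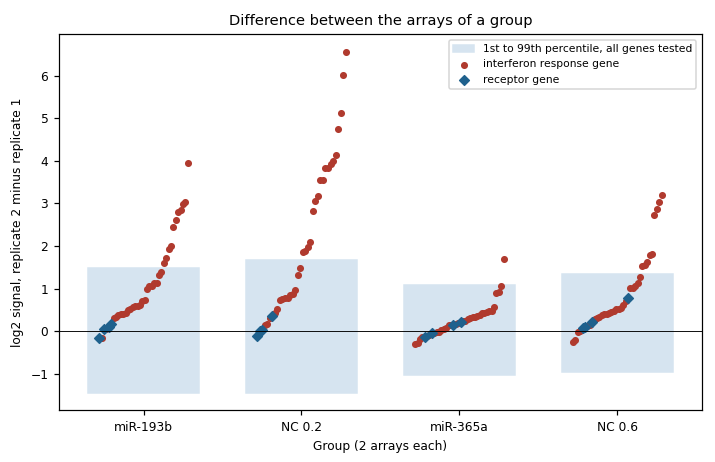
The vertical axis is the log2 level on replicate 2 minus that on replicate 1 of the same group, points are members sorted by value, and the band runs between the 1st and the 99th percentile of all genes tested. In NC 0.2, 18 members lie above the band, up to 6.02 for Rtp4 among genes above background on both arrays; the point above it is Oas2, whose replicate 1 was not well above background. All 4 receptor genes stay between -0.10 and 0.36.

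Rtp4, a chaperone for membrane receptors that interferon induces, shows the pattern most plainly among genes above background on every array. Its log2 level was -2.61 and 0.43 after miR-193b, -3.76 and 2.26 in NC 0.2, -2.69 and -1.62 after miR-365a, and -5.24 and -2.04 in NC 0.6. The lowest and the highest array of the 0.2 set were both NC arrays, which were 64.8-fold apart, and those of NC 0.6 were 9.22-fold apart. The fitted log2 differences were -0.33 ± 2.13 (SE) after miR-193b (limma, adjusted p = 0.944) and 1.48 ± 2.13 after miR-365a (adjusted p = 0.719).

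Isg15, the ubiquitin-like modifier whose promoter above holds 3 matches, had log2 levels of 1.84 and 3.44 after miR-193b, 1.27 and 4.45 in NC 0.2, 1.25 and 1.81 after miR-365a, and 0.24 and 1.87 in NC 0.6. The miR-193b arrays lay between the NC 0.2 arrays, which were 9.11-fold apart, and both miR-365a arrays lay between the NC 0.6 arrays. Its other probe showed a difference of 3.43 between the NC 0.2 arrays, against 3.19 for the brighter probe, so the difference does not rest on 1 probe. Usp18, the protease that removes Isg15 from proteins and damps signalling from the type I receptor, had -3.47 and -1.02 after miR-193b, -4.12 and 0.02 in NC 0.2, -3.09 and -2.76 after miR-365a, and -4.73 and -2.94 in NC 0.6. Here too the miR-193b arrays lay inside the range of NC 0.2. The fit gave Isg15 -0.22 ± 1.12 after miR-193b (adjusted p = 0.927) and 0.48 ± 1.12 after miR-365a (adjusted p = 0.846). For Usp18 it gave -0.20 ± 1.45 (adjusted p = 0.951) and 0.91 ± 1.45 (adjusted p = 0.754).

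The OAS family makes short oligoadenylates that activate RNase L, and its like members Oasl1 and Oasl2 belong to the same response. Oas1a had log2 levels of -2.50 and 0.35 after miR-193b, -3.34 and 1.78 in NC 0.2, -0.48 and -0.03 after miR-365a, and -1.23 and -0.22 in NC 0.6. Its NC 0.2 arrays were 34.6-fold apart and its miR-365a arrays 1.36-fold apart. Oasl2 had -3.83 and -1.04 after miR-193b, -4.91 and -0.16 in NC 0.2, -1.94 and -1.56 after miR-365a, and -4.52 and -2.70 in NC 0.6. Both miR-365a arrays of Oasl2 lay above both NC 0.6 arrays, and the miR-193b arrays lay between those of NC 0.2. Oasl1 had -0.99 and -0.65 after miR-193b, -1.90 and 0.07 in NC 0.2, -2.62 and -2.48 after miR-365a, and -3.66 and -2.94 in NC 0.6. Oasl1 thus repeats the order seen for Oasl2 in both sets. Oas2 had -6.12 and -2.16 after miR-193b, -7.28 and -0.72 in NC 0.2, -4.70 and -3.81 after miR-365a, and -7.34 and -4.48 in NC 0.6, and replicate 1 of miR-193b, of NC 0.2 and of NC 0.6 was not well above background. None of these 4 genes passed the test: the fitted differences ran between -0.30 and 0.10 after miR-193b, with adjusted p of at least 0.937, and between 0.47 and 1.86 after miR-365a, with adjusted p of at least 0.478. Their standard errors were 1.68 for Oas1a, 2.32 for Oas2, 0.61 for Oasl1 and 1.64 for Oasl2.

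Oas3, the OAS protein most tied to RNase L activation in human cells, had the smallest adjusted p of the members after miR-365a. Its log2 level was -1.57 and -1.88 after miR-365a and -3.76 and -3.32 in NC 0.6. Both miR-365a arrays lay above both NC 0.6 arrays, with a gap larger than the spread within either group. The level was -1.73 ± 0.22 after miR-365a and -3.54 ± 0.31 in NC 0.6 (SD, n = 2 each). It rose 3.51-fold, a log2 difference of 1.81 ± 0.40 (limma, adjusted p = 0.0392). The fit takes a single spread per gene from the arrays of both sets. Oas3 has no value on NC 0.2 replicate 1, so its standard error holds no spread between the NC 0.2 arrays. For Oasl2, where that spread is included, the difference after miR-365a was 1.86 ± 1.64. After miR-193b Oas3 had -3.53 and -2.40, against -2.85 on NC 0.2 replicate 2 alone, and the difference of -0.11 ± 0.49 did not pass the test (adjusted p = 0.916). It is represented by 1 probe, at chr5:121203598-121203657 on the minus strand of mm9, and its promoter above holds 1 match to the ISRE pattern.

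Of the 3 IFIT genes, whose proteins bind foreign RNA and block its translation, Ifit1 and Ifit3 followed the spread between arrays and Ifit2 did not. Ifit1 had log2 levels of -2.56 and -0.62 after miR-193b, -3.86 and 0.14 in NC 0.2, -3.71 and -2.79 after miR-365a, and -6.25 and -3.21 in NC 0.6, where replicate 1 was not well above background. Ifit3 had -5.26 and -2.65 after miR-193b, -5.23 and -1.67 in NC 0.2, -7.12 and -5.42 after miR-365a, and -5.67 and -5.15 in NC 0.6, with 1 of the 2 miR-193b arrays and 1 of the 2 miR-365a arrays not well above background. Groups overlapped for both genes in both sets. The fit gave Ifit1 0.27 ± 1.54 after miR-193b (adjusted p = 0.938) and 1.48 ± 1.54 after miR-365a (adjusted p = 0.597), and Ifit3 -0.51 ± 1.34 (adjusted p = 0.854) and -0.86 ± 1.34 (adjusted p = 0.748). Ifit2 was close within groups, at -3.66 and -3.06 after miR-193b, -2.49 and -2.18 in NC 0.2, -3.23 and -3.42 after miR-365a, and -2.51 and -2.72 in NC 0.6. Both microRNA groups lay below their NC arrays without overlap. The differences were -1.02 ± 0.23 after miR-193b (adjusted p = 0.0742) and -0.71 ± 0.23 after miR-365a (adjusted p = 0.0876), neither of which passed the threshold of 0.05.

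Among the nucleic acid sensors and their partners, Zbp1, which binds left-handed nucleic acid, varied most. Its log2 level was -4.17 and -1.18 after miR-193b, -4.64 and -0.72 in NC 0.2, -0.79 and -0.46 after miR-365a, and -2.85 and -1.32 in NC 0.6. Both miR-365a arrays lay above both NC 0.6 arrays, and the NC 0.2 arrays were 15.2-fold apart. Ifih1, the RNA sensor MDA5, had -1.51 and -0.77 after miR-193b, -2.59 and -1.12 in NC 0.2, -1.84 and -1.77 after miR-365a, and -2.24 and -2.25 in NC 0.6. Its groups overlapped in the 0.2 set and not in the 0.6 set. For Zbp1 the fit gave 0.00 ± 1.46 after miR-193b (adjusted p = 0.999) and 1.46 ± 1.46 after miR-365a (adjusted p = 0.579). For Ifih1 it gave 0.72 ± 0.48 (adjusted p = 0.418) and 0.44 ± 0.48 (adjusted p = 0.607). Ddx58 (the RNA sensor RIG-I), Dhx58 (its relative LGP2), Eif2ak2 (the kinase PKR, which halts translation) and Trim25 (a ubiquitin ligase that activates RIG-I) differed by less than 1 between the arrays of each group. Their differences ran between 0.15 and 0.56 after miR-193b and between 0.03 and 0.89 after miR-365a, and none passed the test. The other Ddx58 probe, also well above background on all 8 arrays, gave 0.115 after miR-193b and -0.21 after miR-365a. The probe read gave 0.56 and 0.75, so the Ddx58 probes disagree in sign after miR-365a. By the probe read here Trim25 was the steadiest, with 4.13 and 3.97 after miR-193b, 3.75 and 3.89 in NC 0.2, 4.03 and 4.02 after miR-365a, and 3.99 and 4.00 in NC 0.6. That probe ends in a long run of GT repeats. The other Trim25 probe gave 0.44 after miR-365a, against 0.03 for the probe read. Between the NC 0.2 arrays it differed by 0.42, against 0.15.

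Of the transcription factors, Irf7, which amplifies type I interferon production, had log2 levels of -5.84 and -4.12 after miR-193b, -7.23 and -3.40 in NC 0.2, -4.83 and -4.40 after miR-365a, and -7.49 and -4.77 in NC 0.6. On replicate 1 of miR-193b, NC 0.2 and NC 0.6 it was not well above background, and its groups overlapped in both sets. Irf9, the DNA-binding part of the ISRE complex, had -1.10 and -0.39 after miR-193b, -1.12 and 0.74 in NC 0.2, -0.30 and -0.01 after miR-365a, and -1.10 and -0.54 in NC 0.6. Both miR-365a arrays of Irf9 lay above both NC 0.6 arrays. The fit gave Irf7 0.34 ± 1.42 after miR-193b (adjusted p = 0.912) and 1.51 ± 1.42 after miR-365a (adjusted p = 0.550), and Irf9 -0.55 ± 0.60 (adjusted p = 0.613) and 0.67 ± 0.60 (adjusted p = 0.524). Irf1, a factor that interferon gamma induces, and Stat2, the partner of Irf9, differed by under 1 between arrays. After miR-365a their differences were 0.73 ± 0.23 (adjusted p = 0.0798) and 0.61 ± 0.27 (adjusted p = 0.190), without overlap of the groups.

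The large GTPases restrict viruses and intracellular microbes, and the 3 tested ones followed the arrays. Gbp3 had log2 levels of -3.59 and -1.59 after miR-193b, -3.97 and -0.13 in NC 0.2, -3.37 and -2.89 after miR-365a, and -4.66 and -3.12 in NC 0.6. Gbp2 had -1.19 and -0.12 after miR-193b, -1.86 and 0.03 in NC 0.2, -0.65 and -0.93 after miR-365a, and -1.96 and -1.43 in NC 0.6. Mx2 had -4.50 and -3.18 after miR-193b, -5.29 and -2.46 in NC 0.2, -4.33 and -4.47 after miR-365a, and -5.25 and -4.64 in NC 0.6. In all 3 genes the miR-193b arrays lay between the NC 0.2 arrays, and for Gbp2 and Mx2 both miR-365a arrays lay above both NC 0.6 arrays. The fit gave -0.54 ± 1.31, 0.26 ± 0.64 and 0.04 ± 0.90 for Gbp3, Gbp2 and Mx2 after miR-193b, with adjusted p of 0.838, 0.841 and 0.986. After miR-365a it gave 0.76 ± 1.31, 0.90 ± 0.64 and 0.55 ± 0.90 for the same genes in the same order, with adjusted p of 0.774, 0.408 and 0.762.

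Among the remaining effectors, Xaf1, which counters an inhibitor of cell death, had log2 levels of -1.77 and -0.38 after miR-193b, -3.10 and 0.46 in NC 0.2, -0.24 and 0.06 after miR-365a, and -1.62 and -0.33 in NC 0.6. Rsad2, the antiviral enzyme viperin, had -1.73 and -1.22 after miR-193b, -2.59 and -1.73 in NC 0.2, -3.74 and -3.39 after miR-365a, and -4.72 and -3.66 in NC 0.6. Cmpk2, a nucleotide kinase, had -5.23 and -4.18 after miR-193b, -6.45 and -3.39 in NC 0.2, -5.80 and -5.77 after miR-365a, and -8.22 and -7.09 in NC 0.6. Xaf1 and Cmpk2 were higher after miR-365a than in NC 0.6 without overlap, and all 3 genes overlapped in the 0.2 set. Cmpk2 was not well above background on either NC 0.6 array, on 1 miR-193b array or on 1 NC 0.2 array. After miR-365a it was at least 3.21-fold higher, taking each NC 0.6 array at the lowest signal well above background or at its own level where that was higher, and its fitted difference of 1.87 ± 0.97 did not pass the test (adjusted p = 0.254). The fit gave Xaf1 0.24 ± 1.14 after miR-193b (adjusted p = 0.923) and 0.89 ± 1.14 after miR-365a (adjusted p = 0.682), Rsad2 0.68 ± 0.43 (adjusted p = 0.402) and 0.62 ± 0.43 (adjusted p = 0.398), and Cmpk2 0.22 ± 0.97 after miR-193b (adjusted p = 0.916). Bst2 (the virus tether), Ifi35 (an interferon-induced leucine zipper protein), Isg20 (an RNA exonuclease) and Tap1 (the peptide transporter of MHC class I) differed by under 1 between the arrays of every group that had both values. Their fitted differences ran between -0.77 and 0.41 after miR-193b and between 0.04 and 0.92 after miR-365a, with adjusted p of at least 0.272 and 0.0905.

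Parp9 and Dtx3l form a complex of an ADP-ribosyltransferase relative and a ubiquitin ligase that enhances interferon signalling, and Parp14 is an active ADP-ribosyltransferase. Parp9 had log2 levels of 0.54 and 1.53 after miR-193b, -0.02 and 1.30 in NC 0.2, 1.70 and 1.67 after miR-365a, and 0.48 and 0.80 in NC 0.6. Parp14 had 0.19 and 1.32 after miR-193b, -1.04 and 1.06 in NC 0.2, 0.63 and 0.88 after miR-365a, and -0.40 and 0.61 in NC 0.6. For both, and for Dtx3l, the miR-365a arrays lay above the NC 0.6 arrays without overlap. The fit gave Parp9 0.39 ± 0.48 after miR-193b (adjusted p = 0.664) and 1.04 ± 0.48 after miR-365a (adjusted p = 0.206), Parp14 0.75 ± 0.74 (adjusted p = 0.583) and 0.65 ± 0.74 (adjusted p = 0.635), and Dtx3l -0.39 ± 0.30 (adjusted p = 0.481) and 0.77 ± 0.30 (adjusted p = 0.140).

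For none of the 4 receptor genes did the arrays of any group differ by over 1. Ifngr2, the signalling chain of the interferon gamma receptor, lay below NC after miR-193b and above NC after miR-365a. Its log2 level was -0.90 and -0.81 after miR-193b, against 0.31 and 0.20 in NC 0.2. It was 1.85 and 2.00 after miR-365a, against 0.51 and 1.29 in NC 0.6. Neither pair of groups overlapped. After miR-365a it rose 2.04-fold, a log2 difference of 1.03 ± 0.25 (limma, adjusted p = 0.0394). The difference after miR-193b was -1.11 ± 0.25 and did not pass the threshold (adjusted p = 0.0727). The effect of miR-365a minus that of miR-193b was 2.14 ± 0.35 and passed it (adjusted p = 0.0327), but the call was lost when any 1 of the 8 arrays was left out, with no filter on dim probes and with slide as a fixed block. Ifngr2 was the 1 member of 38 called in that contrast, against 3.53% of all genes. It has 1 probe, at chr16:91563982-91564041 on the plus strand of mm9. No ISRE match lies in its promoter window.

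Ifnar1, the low-affinity chain of the type I receptor, had log2 levels of 0.63 and 0.46 after miR-193b, -0.08 and -0.08 in NC 0.2, 0.04 and -0.10 after miR-365a, and -0.25 and -0.03 in NC 0.6. The miR-193b arrays lay above the NC 0.2 arrays, and the groups of the 0.6 set overlapped. The difference after miR-193b was 0.62 ± 0.13 (adjusted p = 0.0651) and after miR-365a 0.11 ± 0.13 (adjusted p = 0.660). Its other 2 probes gave 0.51 and 0.61 after miR-193b, and 0.80 and 0.51 after miR-365a, so the probes disagree on size after miR-365a. Ifnar2, which binds interferon tightly, had 0.85 and 0.90 after miR-193b, 0.71 and 0.74 in NC 0.2, 1.29 and 1.25 after miR-365a, and 0.82 and 0.93 in NC 0.6. Both microRNA groups lay above their NC arrays, by 0.15 ± 0.11 after miR-193b (adjusted p = 0.449) and 0.40 ± 0.11 after miR-365a (adjusted p = 0.0525). Ifngr1, the ligand-binding chain for interferon gamma, had 0.71 and 0.87 after miR-193b, 0.24 and 0.60 in NC 0.2, 0.78 and 0.99 after miR-365a, and 0.58 and 0.66 in NC 0.6. It too did not overlap in either set, with 0.36 ± 0.16 after miR-193b (adjusted p = 0.259) and 0.26 ± 0.16 after miR-365a (adjusted p = 0.333).

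**Figure D3:**
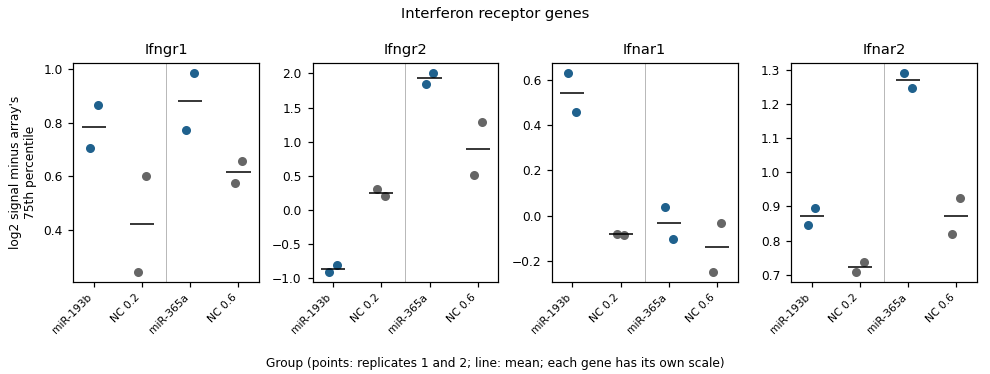
The log2 level of each receptor gene is plotted on both arrays of each group, points for arrays and lines for means, with a separate vertical scale per gene. For Ifngr2 the miR-193b points lie at -0.90 and -0.81, below NC 0.2, and the miR-365a points at 1.85 and 2.00, above NC 0.6.

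After miR-193b no interferon gene passed the test. Of 38 members 0 were called by limma at an adjusted p under 0.05, against 2.9% of all genes. At an unadjusted p under 0.05 there were 3, Ifit2, Ifngr2 and Ifnar1, against 21.4% of all genes. The median log2 difference was 0.15 over members and 0.0492 over all genes, and 24 of 38 members lay above 0, against 55.6% of all genes. That count moved with the processing. It was 19 with the deposited values, 22 with the mean of all probes of a gene and 23 with quantile normalization. With normexp background correction it was 25, and with slide as a fixed block 31. The miR-193b and NC 0.2 arrays did not overlap for 7 of 36 members with all 4 values, against 52.4% of all genes: Isg20, Trim25, Ifngr1, Ifnar1 and Ifnar2 were higher, and Ifit2 and Ifngr2 lower. The members' differences were less precise than those of other genes, with a median standard error of 0.49 over members and 0.1708 over all genes.

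The direction after miR-193b depended on which arrays were set against each other. On slide 1, which carried replicate 1 of both groups, miR-193b was above NC for 31 of 36 members, against 56.8% of all genes, with a median log2 difference of 0.63. Across slides 3 and 2, which carried replicate 2 of each, it was above NC for 15 of 38, against 53.9%, with a median of -0.46. For 17 of 36 members, Rtp4, Isg15, Usp18, Oas1a, Oas2, Oasl1, Oasl2, Ifit1 and Irf7 among them, the sign differed in this way, against 15.2% of all genes. Ifngr2 at -1.21 and -1.01, Ifit2 at -1.17 and -0.87, and Ifnar1 at 0.71 and 0.54 kept their sign in both pairs. For these genes this had to be so, because their groups did not overlap. Some genes with overlapping groups also kept theirs in these pairs, such as Ddx58 at 0.72 and 0.40 and Ifih1 at 1.08 and 0.35. That holds for these pairs only, and the replicate 2 arrays share no slide. Against NC 0.2 replicate 2, miR-193b replicate 1 was lower for both genes, at 2.44 against 2.60 for Ddx58 and -1.51 against -1.12 for Ifih1. Leaving out NC 0.2 replicate 1 gave a median of -0.76 with 11 of 38 members above 0, and leaving out NC 0.2 replicate 2 gave 1.10 with 33 of 38. Leaving out miR-193b replicate 1 gave 0.63, and leaving out miR-193b replicate 2 gave -0.38.

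**Figure D4:**
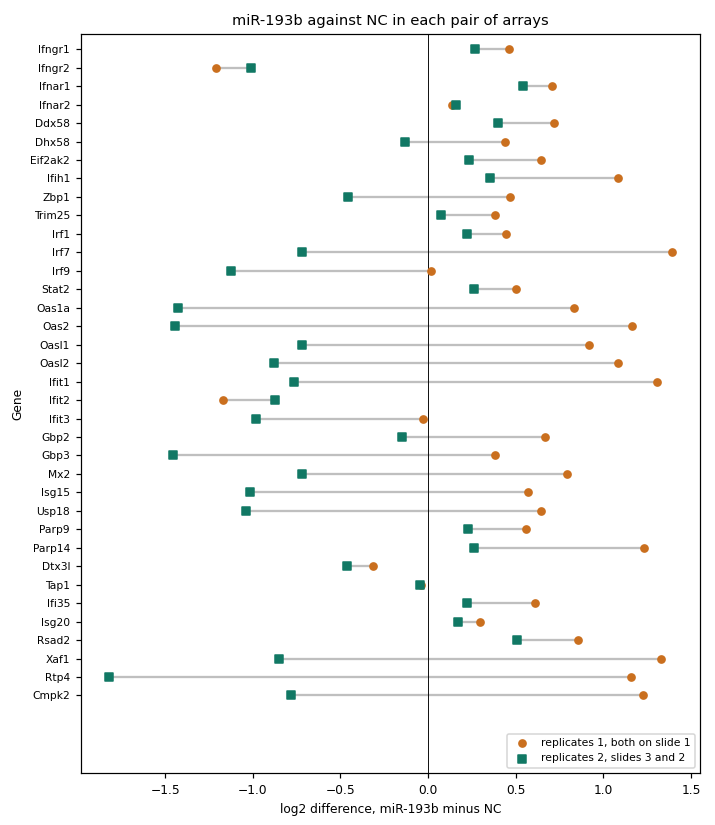
For each gene with a value on all 4 arrays of the 0.2 set, circles give miR-193b minus NC on slide 1 and squares the same across slides 3 and 2, in log2 units. Most effector genes have a circle right of 0 and a square left of it, with Rtp4 at 1.16 and -1.82, while Ifngr2 and Ifit2 have both marks left of 0 and Ifnar1 both right of it.

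After miR-365a most interferon genes lay higher than in NC 0.6, though few passed the test. Oas3 and Ifngr2 were called, 2 of 38 members or 5.26%, against 15.8% of all genes. No member was called lower, a direction in which 8.04% of all genes were called. In the direction of Oas3 and Ifngr2, higher, it was 7.81%. At an unadjusted p under 0.05 there were 8 members, against 31.3% of all genes. Of 38 members 36 had a difference above 0, against 53.0% of all genes, and the exceptions were Ifit2 and Ifit3. This reads the brightest probe of each gene, and other probes of Ddx58 and Isg20 gave -0.21 and -0.01. With the mean of all probes of a gene the count was also 36. The median log2 difference was 0.74 over members and 0.0229 over all genes. The groups did not overlap for 24 of 38 members, 23 of them higher, against 61.5% of all genes and 33.8% higher. The median standard error was 0.48 over members and 0.1707 over all genes. Because the fit takes a single spread per gene from both sets, this error includes the spread within the 0.2 set. It does not measure the spread of the 0.6 set alone.

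The size of this difference rested in part on NC 0.6 replicate 1, the array with the lowest level for 13 of the 36 members that had a value on all 8 arrays. Without it the median was 0.24, with 29 of 38 members above 0, and without NC 0.6 replicate 2 it was 1.10, with 36 of 38 above 0. Neither Oas3 nor Ifngr2 was called without NC 0.6 replicate 1 or without either miR-365a array. Over 17 alternatives with a value for Oas3, its log2 difference ran between 1.31 and 2.03 and it was called in 12. Ifngr2 ran between 0.64 and 1.42 over 18 alternatives and was called in 8.

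**Figure D5:**
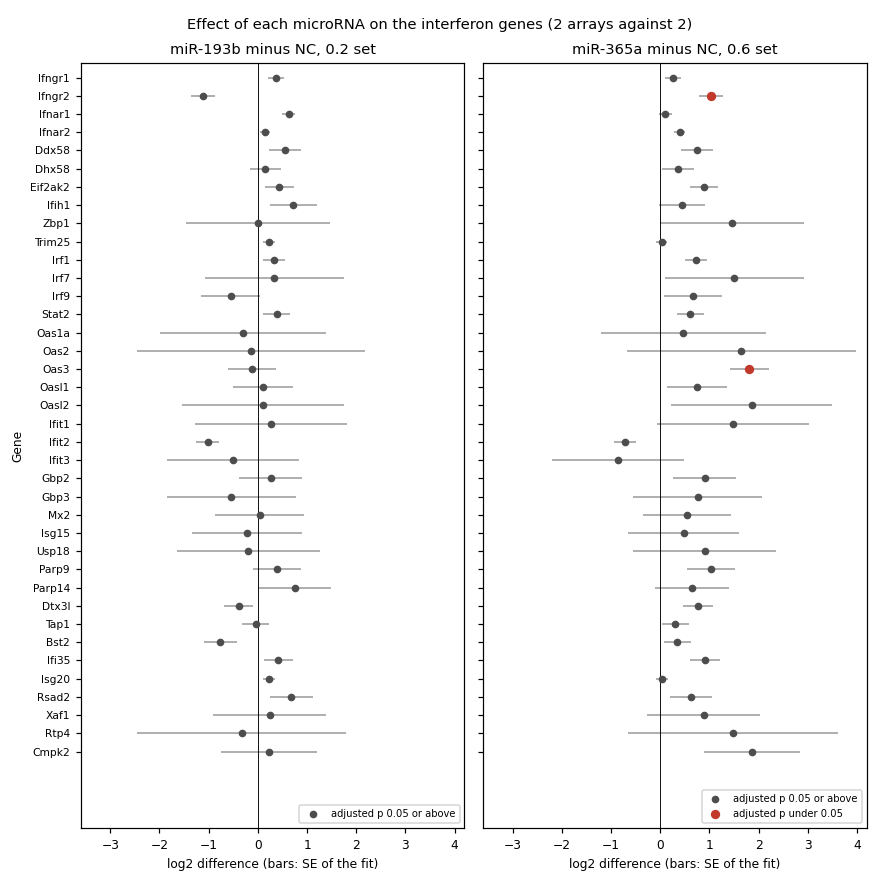
Points are the fitted log2 differences of the 38 tested members, miR-193b minus NC of the 0.2 set on the left and miR-365a minus NC of the 0.6 set on the right, with bars for the standard error; red marks an adjusted p under 0.05. Left, 24 points lie above 0 and none is red; right, 36 lie above 0 and Ifngr2 and Oas3 are red.

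Setting all 8 arrays side by side, the members were highest on NC 0.2 replicate 2 and lowest on NC 0.2 replicate 1. With each gene centred on its mean, the median over 36 members was -0.24 and 0.69 on the miR-193b arrays, -0.77 and 0.88 on NC 0.2, 0.20 and 0.31 on miR-365a, and -0.63 and -0.08 on NC 0.6. Over all genes the same medians stayed between -0.13 and 0.13. NC 0.2 replicate 2 was the highest array for 18 of 36 members, and NC 0.2 replicate 1 the lowest for 18. Over the 4 receptor genes the medians stayed between -0.24 and 0.31. Among tested members with a promoter and both NC 0.2 values, the 11 with an ISRE match had a median NC 0.2 difference between arrays of 1.88, with 7 over 1. The 17 without a match had a median of 0.53, with 6 over 1. These 17 include all 4 receptor genes, whose differences lay between -0.10 and 0.36, and the group with a match holds no receptor. Rtp4, Oas2 and Usp18 had no promoter here and are in neither group. Ifi44 has a promoter without a match and a difference of 4.26, but it was not tested and is left out too. These medians are descriptions of chosen genes, and no test was made of them.

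The wider pathway was read from lists of genes outside the 40. Of 19 interferon ligands 15 were on the array and 8 were tested, while 7 were not well above background on any array. Ifnk, an interferon made by keratinocytes, passed the threshold after miR-193b (adjusted p = 0.0398), but it was not well above background on any array of the 0.2 set, so no direction or size is given. The list medians for ligands were -0.15 after miR-193b and -0.17 after miR-365a.

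Of 19 tested genes for other sensors and adaptors, 1 rose after miR-193b, and after miR-365a 2 rose and 3 fell. Over all genes 2.9% were called after miR-193b and 15.8% after miR-365a. Cyld, a deubiquitinase that restrains signalling, rose after both, by 1.20 ± 0.15 after miR-193b (adjusted p = 0.0243) and 0.95 ± 0.15 after miR-365a (adjusted p = 0.0126). Mavs, the mitochondrial adaptor of RIG-I and MDA5, had 1.68 and 1.89 after miR-365a, against 0.73 and 0.95 in NC 0.6, and rose by 0.95 ± 0.14 (adjusted p = 0.00929). Myd88, the adaptor of most Toll-like receptors, had -0.78 and -0.81 after miR-365a, against 0.43 and 0.63 in NC 0.6, and fell by 1.32 on the log2 scale (SE 0.14, adjusted p = 0.00476). The kinase Tbk1, which activates Irf3, fell by 0.79 (adjusted p = 0.0132) and the adaptor Traf3 fell by 0.74 (adjusted p = 0.0309). For Myd88 the contrast with the effect of miR-193b also passed the test, at -1.73 (adjusted p = 0.0158). The list medians were 0.0656 after miR-193b and 0.0914 after miR-365a.

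Of 18 tested genes of JAK-STAT signalling, none was called after miR-193b, against 2.9% of all genes, and 3 rose and 3 fell after miR-365a, against 15.8% of all genes in either direction. The receptor-bound kinases Jak1 and Jak2 rose by 0.62 ± 0.10 (adjusted p = 0.0141) and 0.48 ± 0.12 (adjusted p = 0.0467), and Irf2, a repressor of interferon-stimulated promoters, rose by 0.81 ± 0.18 (adjusted p = 0.0330). Stat3 had 1.49 and 1.26 after miR-365a, against 2.30 and 2.52 in NC 0.6, and fell by 1.04 on the log2 scale (adjusted p = 0.00797). Socs3, the feedback inhibitor that Stat3 induces, fell by 1.10 (adjusted p = 0.0181), and Irf2bp2, a partner of Irf2, fell by 0.68 (adjusted p = 0.0274). The contrast of effects passed the test for Stat3, at -1.45 (adjusted p = 0.0206), and for Irf2bp2, at -1.08 (adjusted p = 0.0471). The list medians were 0.0783 after miR-193b and -0.11 after miR-365a.

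Further classes of interferon-stimulated genes were also compared between the NC 0.2 arrays. The 8 tested interferon-inducible GTPases outside the 40 had a median of 1.61 for replicate 2 minus replicate 1 in NC 0.2, with 7 of 8 over 1. None of these 8 was called after either microRNA. Irgm2, Iigp1, Ifi47 and Gvin1, all among the 7, were well above background on only 1 NC 0.2 array. Of 45 tested further interferon-stimulated genes, 14 were over 1 in the same way, with a median of 0.58. Trim30a, Trim34a and Parp12 among the 14 were likewise above background on only 1 NC 0.2 array. The count over 1 was 0 of 19 for sensors and adaptors and 0 of 18 for JAK-STAT genes. Over all genes 3.34% were higher on replicate 2 by over 1, and no difference between these lists was tested. Of the 45, Ifitm1 and Ifi30 rose after both microRNAs, and Slfn2 after miR-365a, against the same shares of all genes, 2.9% and 15.8%. Ifi30, a lysosomal thiol reductase, rose by 0.92 ± 0.17 after miR-193b (adjusted p = 0.0460) and 0.74 ± 0.17 after miR-365a (adjusted p = 0.0327). Slfn2, a regulator of T cell quiescence, rose by 1.44 ± 0.30 after miR-365a (adjusted p = 0.0257). Ifitm1, a block to virus entry, was not well above background on either NC 0.2 array, and after miR-193b it was at least 1.54-fold higher, by the rule used for Cmpk2 (adjusted p = 0.0492). After miR-365a it rose by 0.63 ± 0.12 (adjusted p = 0.0186). The list medians were 0.19 after miR-193b and 0.33 after miR-365a. Of 17 genes of MHC class I presentation 0 were called, with medians of 0.0804 after miR-193b and 0.39 after miR-365a.

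Markers of other cells were set beside these results. The summed linear level of all 10 leukocyte markers on the array was 5.37 and 5.17 after miR-193b, 5.20 and 5.21 in NC 0.2, 9.52 and 10.5 after miR-365a, and 6.71 and 8.60 in NC 0.6. Between the NC 0.2 arrays, replicate 2 minus replicate 1 was 0.40 for Itgam and -0.40 for Cd3e, -0.21 for Cd68, -0.48 for Csf1r and -0.87 for Cd14. Csf1r, the macrophage growth factor receptor, was the 1 leukocyte marker of 5 tested that was called, with 1.90 ± 0.31 after miR-365a (limma, adjusted p = 0.0133). Over all genes 15.8% were called after miR-365a. Summed endothelial markers were 1.63 and 1.41 after miR-193b, 1.71 and 1.25 in NC 0.2, 3.62 and 4.96 after miR-365a, and 3.54 and 4.51 in NC 0.6, and Esam was called after miR-193b at 0.89 ± 0.11 (adjusted p = 0.0243). For fibroblast markers the sums stayed between 0.0993 and 0.3004 on all 8 arrays. Keratinocyte sums were 768 and 820 after miR-193b, 563 and 567 in NC 0.2, 734 and 911 after miR-365a, and 797 and 931 in NC 0.6, and Krt16, a keratin of activated epidermis, rose by 1.76 ± 0.20 after miR-193b (adjusted p = 0.0204). After miR-193b 1 of 4 tested endothelial and 1 of 16 tested keratinocyte markers were thus called, against 2.9% of all genes. The part of these markers in the differences between arrays or groups was not tested.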

How the data were processed

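Each array has a scanner file of spot intensity, which per the file headers is the processed signal that Feature Extraction 10.7.3.1 gave the authors, with background removed and no scaling across arrays. A deposited log2 table of the same arrays, for which the submitters' processing notes name limma, served as an alternative. Its column medians were 7.11 to 7.12, and r with the array's own spots was 0.965 to 0.981; its background correction is not given in the sources used here.

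Control and outlier-flagged spots were dropped. The log2 signal was centred on the 75th percentile of the array, and repeated spots were averaged per probe. Accessions named 27502 of 39429 probes, current symbols 3549 and synonyms 404 through RefSeq tables, and 7974 kept their file name. The brightest probe stood for a gene, which was tested where both arrays of any group were well above background. Limma 3.58.1 in R 4.3.3 was fitted to all 8 arrays with set, miR-193b and miR-365a as terms, with 4 residual degrees of freedom and a prior of 2.3. Adjustment was by Benjamini-Hochberg over 17856 genes, with calls under 0.05. The comparisons share no NC array, and 2 arrays a group limit the precision. The fit was run on simulated data with independent errors for each gene and array. Such data hold no shift shared by many genes of an array, so they do not test the fit against one.

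Full values are given for members called in any comparison, for the receptors and for members whose arrays of a group differ by over 1, and ranges for most others. From other lists, called genes were named, at most 6 each. The members and lists were chosen with earlier results of these data known. Alternatives were normexp (offset 50), quantile normalization, the deposited values, other filters and probe rules, each set alone, a trended robust variance, slide as a block and leaving out arrays. The separate pairs of arrays for miR-193b were added after the data were seen.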

Additional observations from a re-analysis of the deposited data

Results flagged for a closer look

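For Ifngr2 the effect of miR-365a minus the effect of miR-193b was 2.14 on the log2 scale (SE 0.35, limma, adjusted p = 0.0327), a difference between the 2 effects past the threshold. The call was lost when any 1 of the 8 arrays was left out, with no filter on dim probes and with slide as a fixed block. The level was -0.90 and -0.81 after miR-193b, against 0.31 and 0.20 in NC 0.2, and 1.85 and 2.00 after miR-365a, against 0.51 and 1.29 in NC 0.6. The microRNAs were measured in different sets, so the set and the microRNA differ together in this contrast.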

How the results depend on the processing

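After miR-193b the count of called members was 0, and it was 2 with normexp background correction (Ifngr2 and Ifnar1) and with the deposited log2 values (the same genes), and 3 with genes above background on all 8 arrays or with a trended robust variance (Ifit2 in addition). Leaving out each array in turn gave 0 to 1, with Ifngr2 called without either NC 0.6 array. The median after miR-193b ran between -0.76 and 1.10 when arrays were left out, and was 0.63 with slide as a fixed block. After miR-365a the count was 2, and it was 6 with normexp, with the set fitted alone, and with slide as a random or a fixed block, 4 with the deposited values and with a trended variance, and 0 with no filter on dim probes; leaving out arrays gave 0 to 3. The median after miR-365a ran between 0.24 and 1.10 when arrays were left out. The count of members whose effects differ was 1, and 0 with no filter, with slide as a fixed block and without any 1 array. Over all genes the calls ran between 0 and 1024 after miR-193b, 517 in the fit reported, and between 601 and 3749 after miR-365a, 2830 in the fit reported. Oas3 and Ifngr2 kept a positive difference after miR-365a in these alternatives. The fixed block for slides leaves miR-193b to be compared within slide 1, and leaving out an array leaves a group of 1, assumed to vary like the others. A set fitted alone takes its spread from its own arrays only, while the fit reported takes it from both sets. The cause of the other shifts was not tested. No paired analysis was possible because the replicate numbers follow accession order and so pair no arrays; slide 1, shared by an array of each 0.2 group, entered as the slide block. Dim probes limit Oas2, Irf7, Ifit1, Ifit3 and Cmpk2.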
